A study of Mus musculus with 8 samples.

Results

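The EphB receptors and ephrin-B ligands were followed through the cell types of the mouse cerebral cortex. They were 8 genes of 32285 in the count tables, taken by symbol: the receptors Ephb1, Ephb2, Ephb3, Ephb4 and Ephb6, and the ligands Efnb1, Efnb2 and Efnb3. The family was chosen by measured values: Ephb1 had been called between genotypes in deep-layer neurons of these libraries in a model with pairs, so every genotype value of Ephb1 is a description without a test. The levels by cell type are a description as well. The nuclei came from 8 C57BL/6J mice at P25. The 4 wild-type mice (WT) and the 4 mice heterozygous for Chd8 (Chd8+/-, written Chd8het) were 2 males and 2 females of each genotype. Each mouse gave 1 library of frozen cortex from which the medial part had been dissected away. Each group of sex and genotype held a library with a single index (replicate 1) and a library with dual indexes (replicate 2). Index type and replicate number therefore cannot be told apart. Which Chd8 allele was used is not given in the sources used here.

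Eph receptors are receptor tyrosine kinases, and the B class binds ephrin-B ligands that are themselves anchored in the membrane of a neighbouring cell by a transmembrane segment. Contact signals both ways: forward into the cell with the receptor, and in reverse into the cell with the ligand. In the brain the system is known for axon guidance, for the maturation of dendritic spines and for the clustering of NMDA receptors at synapses. In vessels Efnb2 is a marker of arteries and Ephb4 of veins. Ephb6 carries a kinase domain without catalytic activity.

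Ephb1 (ENSMUSG00000032537) lies on the minus strand of chromosome 9 at 101922128-102354693 (GRCm38) and spans 432.6 kb. Ephb2 lies on chromosome 4 and spans 188.4 kb. The other 6 members span 6.1 kb (Efnb3) to 43.8 kb (Efnb2). The 250 bases upstream of these 2 long receptor genes are shown as a description. Both genes, like Efnb2 and Ephb3, were higher in dual-indexed libraries in every type tested, as described below. Whether the upstream bases have a part in this was not tested. Both sequences are from RefSeq (GRCm38.p6), 5′ to 3′ on the strand of the gene, with each CG dinucleotide in capitals. They are Ephb1 at chr9:102354694-102354943 (minus strand) and Ephb2 at chr4:136836013-136836262 (minus strand).
Ephb1: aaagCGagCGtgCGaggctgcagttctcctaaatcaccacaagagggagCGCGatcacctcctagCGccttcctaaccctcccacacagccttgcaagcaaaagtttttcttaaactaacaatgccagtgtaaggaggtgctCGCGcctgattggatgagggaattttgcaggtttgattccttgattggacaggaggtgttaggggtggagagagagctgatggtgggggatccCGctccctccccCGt
Ephb2: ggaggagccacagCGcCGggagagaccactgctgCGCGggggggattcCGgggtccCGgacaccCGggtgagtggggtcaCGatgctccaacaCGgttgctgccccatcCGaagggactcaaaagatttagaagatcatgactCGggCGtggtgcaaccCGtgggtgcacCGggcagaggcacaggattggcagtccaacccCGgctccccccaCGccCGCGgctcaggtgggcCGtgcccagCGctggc
Ephb1 held 10 CG dinucleotides here, more than 62.2% of the 32851 promoters of the same length, whose median was 6. Ephb2 held 20, more than 82.1% of them. The letters GGGCGG, searched on both strands, occurred in 32.7% of all promoters and in 4 of the 7 members with a promoter in the table, but in neither of these. Efnb3 was not matched.

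The 8 libraries held 69503598 to 98132783 unique molecular identifiers (UMIs) and 7503 to 10988 nuclei after filtering and doublet removal, 77890 in all. Between 27 and 63 cell barcodes were shared by any 2 libraries. Each nucleus was named from marker genes, and 60892 (78.2%) received a name, 70.5 to 84.4% per library. A name means resemblance by markers only. Levels are given for 21 types and tests for the 17 that had at least 30 nuclei in every library. Among the 4 others, the striatal projection type had 1 to 173 nuclei per library. Of L5/6 near-projecting (NP) nuclei, 62.6% lay in a cluster named so by the same markers, the lowest share among tested types. Chd8 itself was lower in Chd8het in 10 of the 16 types in which it was tested, with 0 calls and 0 unadjusted p under 0.05 (edgeR). Its log2 change ran from -0.17 ± 0.16 (SE) in Vip to 0.23 ± 0.14 in Lamp5 interneurons. Without the position of the allele these counts of the whole gene do not check the genotype.

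Levels are counts per 1000000 UMIs of the type in a library (CPM), as mean ± SD over libraries. Markers of excitatory neurons were read outside those neurons as well: the 6 excitatory markers summed to 4051 CPM in L6 corticothalamic (CT) neurons and to 1372 CPM (range 1125 to 1620) in microglia. Over the interneurons, glia and vascular types they ran from 491 CPM in Pvalb interneurons to 1523 in mural nuclei. The source of these UMIs was not tested. The level in microglia is given beside the others for comparison and is not a common floor, since these markers were higher there than in most of those types. Fewer nuclei expressing a gene and less RNA per nucleus cannot be told apart in these sums.

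Ephb1, a receptor with roles in axon guidance at the optic chiasm, was read in both neurons and glia. It stood at 861 ± 146 CPM in committed oligodendrocyte precursors (COP), 494 ± 50.2 in oligodendrocytes, 443 ± 183 in L6 CT neurons and 411 ± 45.5 in astrocytes (n = 8), against 48.7 ± 18.2 in microglia. The ranges overlapped at every step between neighbouring types. The striatal projection type, with few nuclei in some libraries, was next at 355 ± 271 (range 0 to 839). Below these came L5 extratelencephalic (ET) neurons with 234 ± 47.2 and intratelencephalic (IT) neurons with 146 ± 42.4 in L4/5, 117 ± 29.6 in L5/6 and 104 ± 15.1 in L2/3. All COP, oligodendrocyte and astrocyte libraries (338 CPM or more) lay above all L5 ET libraries (172 to 311). L6 CT neurons (241 to 731) overlapped L5 ET neurons. Car3-type excitatory neurons had 223 ± 83.2. Vip (45.8 ± 12.9), Pvalb (40.7 ± 10.5) and Sst (28.6 ± 4.97) interneurons were below the mean in microglia, whereas Lamp5 interneurons had 115 ± 27.5. Vascular leptomeningeal cells (VLMC, 38.8 ± 18.2) were below that mean too. Excitatory L6b neurons had the lowest level of all types, 24.3 ± 13 from 73 UMIs. By the share of all Ephb1 UMIs in the kept nuclei, L6 CT neurons gave 23.9% from 9.23% of the UMIs of all genes, oligodendrocytes 7.23% from 2.49% and astrocytes 6.78% from 2.79%. L2/3 IT neurons gave 12.8% from 21.0%.

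Ephb2, a receptor that binds NMDA receptor subunits at the synapse, was highest in excitatory neurons. Its level was 162 ± 58.6 CPM in L6 CT neurons, 143 ± 31.6 in L5 ET neurons, 102 ± 30.5 in L5/6 near-projecting (NP) neurons, 75.0 ± 19.7 in L5/6 IT, 70.9 ± 29.6 in L4/5 IT and 63.5 ± 26.2 in L2/3 IT (n = 8). Lamp5 (70.3 ± 17.5), Vip (64.9 ± 8.39) and Sst (57.3 ± 8.20) interneurons lay close to the IT neurons, and Pvalb interneurons lower at 22.2 ± 8.31. It was 13.7 ± 6.23 in oligodendrocytes and 12.1 ± 4.70 in astrocytes, no higher than the 15.7 ± 6.23 of microglia. Above microglia among the non-neuronal types were VLMC (vascular leptomeningeal cells, 52.6 ± 22.6), COP (43.1 ± 22.4), oligodendrocyte precursors (OPC, 33.8 ± 13.1), mural (27.2 ± 23.7) and endothelial nuclei (24.6 ± 14.9).

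Ephb6, the kinase-inactive receptor, had its highest level in L6 CT neurons at 49.9 ± 3.90 CPM, where all 8 libraries lay between 45.5 and 56.5. L5/6 IT (32.7 ± 2.99) and L5/6 NP neurons (28.6 ± 5.40) followed, against 19.8 ± 8.00 in microglia. The step from L6 CT to L5/6 IT was the 1 of its 20 steps between neighbouring types at which the ranges did not overlap. Ephb3, a receptor with roles in axon guidance, was low throughout. Its level was 17.0 ± 3.58 CPM in L5 ET, 16.7 ± 2.61 in OPC and 16 ± 3.83 in astrocytes, against 12 ± 5.42 in microglia, and the ranges overlapped at every step. Ephb4, the venous receptor, gave 505 UMIs in all kept nuclei. It was found at 37.4 ± 13.4 CPM in endothelial nuclei, 20.4 ± 12.9 in VLMC and 9 ± 3.29 in astrocytes. In microglia 0 UMIs were counted, which allows up to 0.519 CPM, and in L6b neurons 0, which allows up to 1.03 CPM (counting error only).

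**Figure D1:**
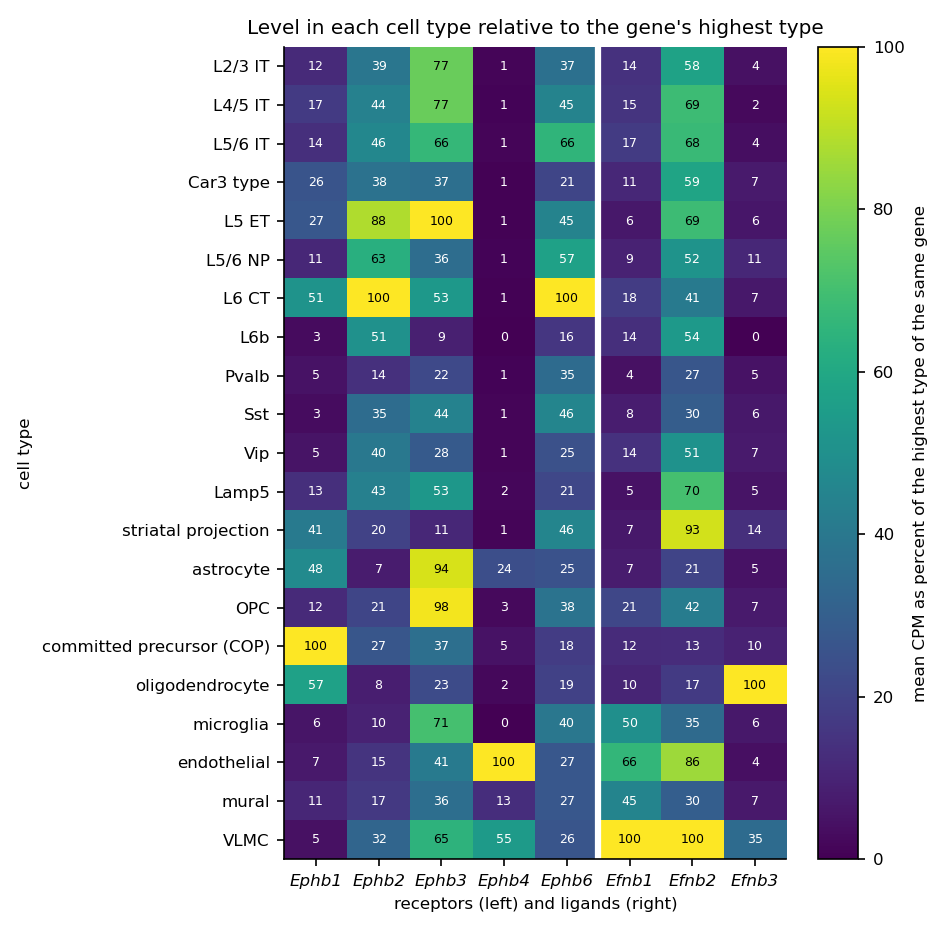
Mean CPM of each member in 21 cell types (rows), as percent of the type in which the same gene was highest; receptors are left of the white line and ligands right of it. Ephb1 is highest in COP (861 CPM), Ephb2 and Ephb6 in L6 CT neurons (162 and 49.9 CPM), Efnb3 in oligodendrocytes (76.0 CPM) and Ephb4 in endothelial nuclei (37.4 CPM).

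Among the ligands, Efnb2, the arterial ligand that neurons carry too, was spread widest. It reached 68.3 ± 20.3 CPM in VLMC, 58.4 ± 27.4 in endothelial nuclei, 48.1 ± 6.43 in Lamp5, 46.9 ± 8.34 in L5 ET, 46.9 ± 5.19 in L4/5 IT, 46.3 ± 2.64 in L5/6 IT and 39.4 ± 5.53 in L2/3 IT. L6 CT neurons, with the highest level of Ephb2 and Ephb6, had 27.8 ± 4.62 CPM of Efnb2, and microglia 23.6 ± 8.08. In the striatal projection type it was 63.7 ± 61.3 CPM from 205 UMIs, with 1 library at 194 CPM. Efnb3, a ligand known from neurons and from myelin, stood at 76.0 ± 15.8 CPM in oligodendrocytes. Its next type was VLMC at 26.5 ± 9.87, followed by the striatal projection type at 10.3 ± 9.09 and L5/6 NP neurons at 8.42 ± 3.56, and microglia had 4.90 ± 1.22. Oligodendrocytes gave 31.7% of all Efnb3 UMIs from 2.49% of the UMIs of all genes, and the step down to VLMC was the 1 step of 20 at which ranges did not overlap. Oligodendrocyte markers summed to 445 CPM in VLMC and to 642 in microglia, against 16509 in oligodendrocytes; their part in the Efnb3 of VLMC was not tested. Efnb1, an X-linked ligand, gave 1415 UMIs in all. It was highest in VLMC (17.1 ± 6.92 CPM), and was 11.3 ± 9.46 in endothelial nuclei and 8.54 ± 2.61 in microglia. The neuronal types had 0.751 to 3.03 CPM of Efnb1.

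Between genes, levels are set side by side here as CPM per kb of gene span, a scale on which a long gene such as Ephb1 stands lower. Whether UMI counts grow with span was not tested, and the order of genes depends on this scaling. In L6 CT neurons Ephb1 had 443 CPM and Ephb6 49.9 CPM before it. In L6 CT neurons Ephb6 had 3.33 ± 0.26 CPM per kb, Ephb1 1.02 ± 0.423 and Ephb2 0.86 ± 0.311 (n = 8). In oligodendrocytes Efnb3 had 12.5 ± 2.59 CPM per kb, beside 1.14 ± 0.116 for Ephb1 and 0.264 ± 0.0813 for Efnb2. In astrocytes the receptors Ephb1 (0.949 ± 0.105 CPM per kb), Ephb3 (0.858 ± 0.206) and Ephb6 (0.836 ± 0.159) lay within their spread of each other. The ligands there had 0.587 ± 0.327 (Efnb3), 0.322 ± 0.0495 (Efnb2) and 0.0983 ± 0.0637 (Efnb1). In L2/3 IT neurons Ephb6 had 1.23 ± 0.177, Efnb2 0.90 ± 0.126, Ephb3 0.706 ± 0.249 and Ephb1 0.24 ± 0.0348. In VLMC the ligands had 4.35 ± 1.62 (Efnb3), 1.56 ± 0.463 (Efnb2) and 1.32 ± 0.537 (Efnb1) CPM per kb, and the highest receptor, Ephb6, had 0.88 ± 0.347. How many reads of each gene fell in introns is not given in the sources used here, so span is only a rough measure of the length that was read.

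In the oligodendrocyte lineage the members differed between stages, and not all in the same direction. Ephb1 was 101 ± 25.1 CPM in OPC, 861 ± 146 in COP and 494 ± 50.2 in oligodendrocytes. In OPC all 8 libraries lay between 69.1 and 129.8, in COP between 581 and 1048 and in oligodendrocytes between 437 and 601. The range of OPC thus stood apart from those of COP and oligodendrocytes, which overlapped between 581 and 601 over all libraries. Within each of the 8 libraries Ephb1 was higher in COP than in oligodendrocytes. In WT female 1, the library with the lowest COP value, the levels were 581 and 491 CPM. Efnb3 was 5.59 ± 2.42 CPM in OPC, 7.29 ± 4.87 in COP and 76.0 ± 15.8 in oligodendrocytes, where the lowest library had 57.2. At the COP stage, where Ephb1 was highest, Efnb3 was within its spread of the 4.90 CPM of microglia. Efnb2 was lower after the OPC stage: 28.6 ± 4.74 CPM in OPC (range 22.1 to 36.6), 8.73 ± 5.22 in COP (0 to 16.1) and 11.6 ± 3.56 in oligodendrocytes (6.23 to 16.1). Oligodendrocyte markers summed to 334 CPM in OPC, 6007 in COP and 16509 in oligodendrocytes. The stages came from the same 8 mice, and COP counts for Efnb3 rested on 23 UMIs.

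**Figure D2:**
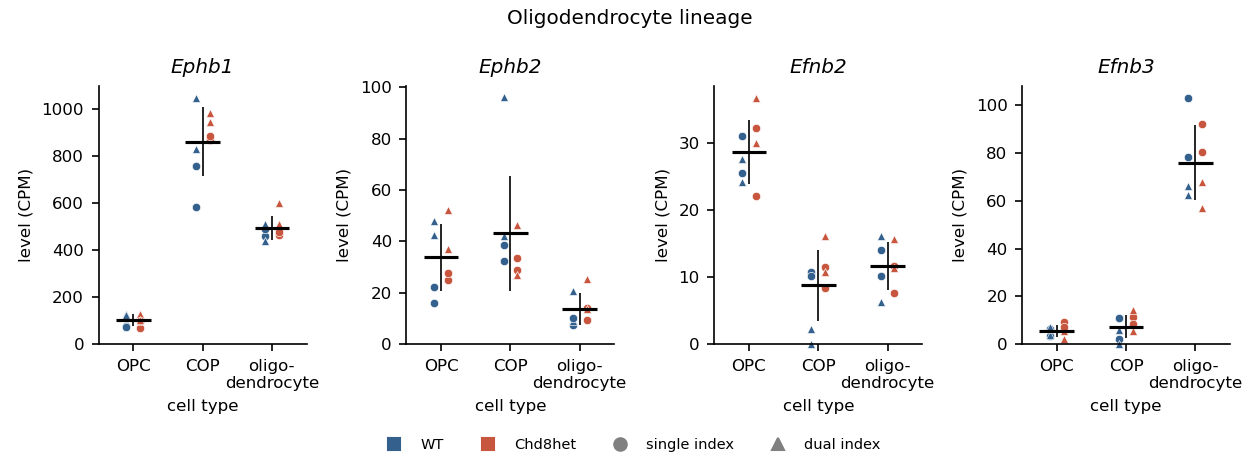
Level (CPM) of Ephb1, Ephb2, Efnb2 and Efnb3 in OPC, COP and oligodendrocytes; each point is a library, coloured by genotype and shaped by index type, and the black lines are the mean and ± 1 SD (n = 8). Ephb1 is at 437 or more in every COP and oligodendrocyte library, while Efnb3 reaches 57.2 or more in oligodendrocytes alone of these 3 stages.

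The vascular members were looked at within the 464 endothelial nuclei. By the arterial and venous marker lists, 47 nuclei had more arterial and 168 more venous UMIs, and 249 had neither in the lead. Any lead in UMIs was enough for a class. The venous markers were not particular to endothelial nuclei: they summed to 537 CPM there, 556 in microglia, 712 in VLMC and 418 in mural nuclei. The arterial markers summed to 191 CPM in endothelial nuclei. The classes are therefore leads in marker UMIs and not named vessel types. Efnb2 was 81.5 CPM (95% exact Poisson interval 37.3 to 155) in nuclei with arterial markers in the lead. It was 40.9 CPM (24.3 to 64.7) with venous markers in the lead and 60.4 CPM (39.4 to 88.5) with neither in the lead. Ephb4 was 36.2 CPM (9.87 to 92.7), 43.2 CPM (26.0 to 67.5) and 32.5 CPM (17.8 to 54.6) in the same order. All intervals overlapped. Whether Efnb2 or Ephb4 differs between arterial and venous endothelium cannot be read from these classes at this depth. The intervals cover counting error only and pool the 8 libraries. The 140 UMIs of Ephb4 in astrocytes were 27.7% of all its UMIs. In astrocytes the endothelial markers summed to 16.6 CPM, the mural markers to 169 and the VLMC markers to 254. In microglia, with 0 UMIs of Ephb4, these lists summed to 49.3, 22.8 and 28.4 CPM. Endothelial nuclei had 12440 CPM of their own markers and VLMC 5179 of theirs. The part of these cells in the Ephb4 of astrocytes was not tested.

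The genes whose levels over the 21 types were most like each member (Pearson r of log2(CPM + 1) between type means, among 14767 genes) are given as a description. The types share libraries and differ in depth. For Ephb1 the closest gene was 9630041A04Rik (r = 0.89), followed by Shisa4 (0.73) and Diaph3 (0.73), a formin that assembles actin. The 9630041A04Rik gene lies on the opposite strand and overlaps the 3′ part of Ephb1 by 21101 bases (GENCODE M21, GRCm38). It was read at 43.2 ± 18.1 CPM in COP, 28.2 ± 8.83 in oligodendrocytes, 25.6 ± 9.46 in astrocytes and 21.6 ± 12.2 in L6 CT neurons, the 4 types that led for Ephb1. Whether the counting used strand is not given in the sources used here, so reads of these genes cannot be told apart. Gm29388, inside Ephb1 on the same strand, had 0 UMIs. For Ephb6 the closest gene was Trpv6 (0.75), a calcium channel whose span begins 0.114 kb from that of Ephb6. The closest genes were Pdgfd (0.96), a platelet-derived growth factor, for Ephb4, Map3k8 (0.95), a kinase, for Efnb1, Mn1 (0.93) for Efnb2, Rfx1 (0.87), a transcription factor, for Ephb2, Ctr9 (0.84), a subunit of the PAF1 complex, for Efnb3 and Cfap100 (0.74) for Ephb3. Among the members themselves, Ephb4 and Efnb1 were most alike (0.62), followed by Ephb2 with Efnb2 (0.47) and with Ephb6 (0.42), and Ephb1 was near 0 with Ephb2 (-0.05). Of the other overlaps, Zan shares 33 bases with Ephb4.

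Ephb1 was lower in Chd8het than in WT in L6 CT neurons, part of the deep-layer neurons whose values led to the choice of this family. In WT it was 390.1 CPM in male 1, 731 in male 2, 352 in female 1 and 691 in female 2. In Chd8het it was 251, 473, 241 and 415 in the same order. Within single-indexed libraries both Chd8het values lay below both WT values, and likewise within dual-indexed libraries, while over both index types the genotypes overlapped. The log2 change (Chd8het minus WT) was -0.67 ± 0.30 (SE) in the model with sex, with log2 ratios of -0.59 for a single index and -0.68 for dual indexes. It ran from -0.872 to -0.435 with a library left out. With a term for each of the 4 pairs of the same sex and replicate number the change was -0.65 ± 0.06. Genotype changes given below for other types and members are from the model with sex unless stated. Their SEs therefore compare with the ± 0.30 and not with the ± 0.06. The 5 L6 CT markers, summed, were 4216, 5752, 4455 and 5503 CPM in WT and 3918, 4466, 4100 and 4974 in Chd8het, in the same order of libraries. The 8 striatal projection markers, read in these nuclei as well, summed to 1283, 2550, 1116 and 2418 CPM in WT and to 1035, 2139, 914 and 1426 in Chd8het. Both sums were lower in Chd8het in each pair and without overlap within an index type, and their part in the Ephb1 values was not tested.

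In the other excitatory types the Ephb1 values were smaller. L5/6 IT neurons had a log2 change of -0.27 ± 0.23, L4/5 IT -0.17 ± 0.27 and L2/3 IT -0.11 ± 0.15, and each was lower in Chd8het in 4 of 4 pairs. In L5/6 IT, as in L6 CT neurons, both Chd8het values lay below both WT values within each index type (log2 ratios -0.16 single, -0.29 dual). In L4/5 IT and L2/3 IT this held within single-indexed libraries only. How many of all genes showed such pair counts or gaps, here or in L6 CT neurons, was not counted. L5 ET neurons had -0.13 ± 0.18, with a lower value in 2 of 4 pairs. L5/6 NP neurons had -0.08 ± 0.37, with a lower value in 2 of 4 pairs. Leaving out WT male 2 gave -0.022 in L2/3 IT, -0.060 in L5/6 IT, 0.005 in L4/5 IT, 0.024 in L5 ET and 0.329 in L5/6 NP neurons. Interneurons went both ways: Lamp5 had -0.46 ± 0.17 and Vip -0.38 ± 0.23, but Pvalb 0.24 ± 0.23 and Sst 0.27 ± 0.18. Among the non-neuronal types, OPC had -0.04 ± 0.23, microglia 0.15 ± 0.35, VLMC 0.32 ± 0.40, astrocytes -0.11 ± 0.13, oligodendrocytes 0.07 ± 0.11 and COP 0.18 ± 0.18. In oligodendrocytes the genotypes overlapped: WT libraries had 437 to 512 CPM and Chd8het libraries 463 to 601. For the overlapping gene 9630041A04Rik the change was -0.44 ± 0.46 in L6 CT neurons and -0.74 ± 0.27 in astrocytes (adjusted p = 1 for both, edgeR).

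**Figure D3:**
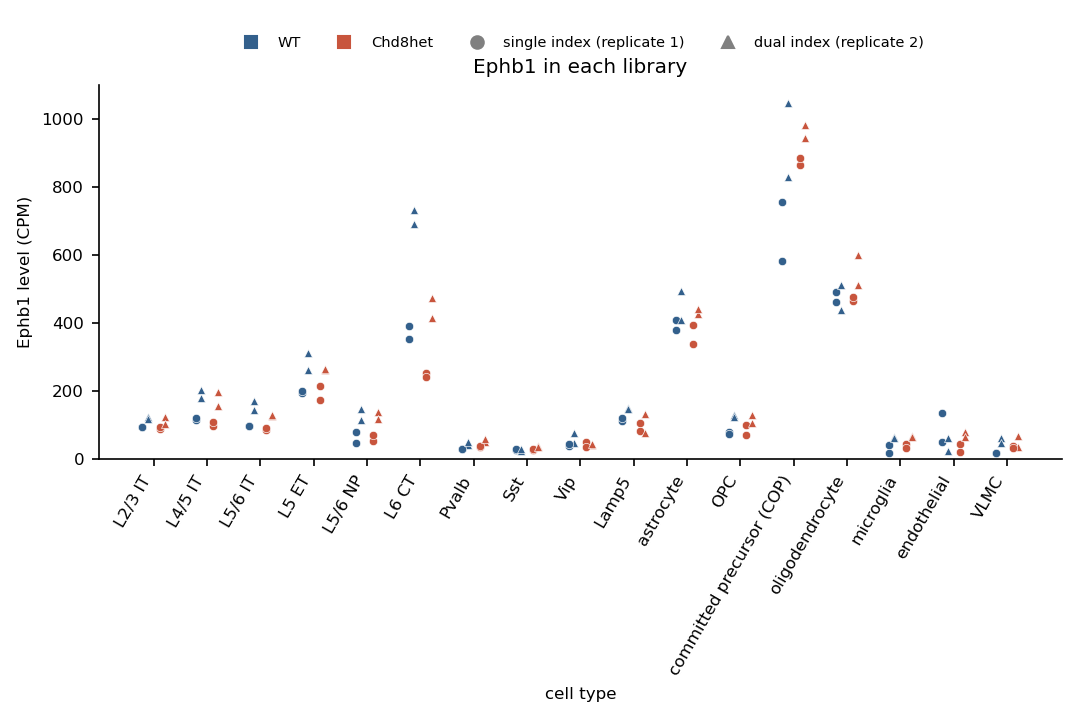
Ephb1 level (CPM) in each library for the 17 tested types; blue is WT and red Chd8het, circles are single-indexed (replicate 1) and triangles dual-indexed (replicate 2) libraries. In L6 CT neurons the red symbols (241 to 473) lie below the blue ones of the same shape (352 to 731), and the triangles lie above the circles in many types.

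No paralogue of Ephb1 was called between genotypes. Of 136 pairs of a member and a tested type, 84 passed the count filter (edgeR filterByExpr with a minimum count of 10), and none of these was in endothelial nuclei. Of the 84, 68 were tests of members other than Ephb1. By the edgeR quasi-likelihood test with Benjamini-Hochberg adjustment, 0 of the 68 were called at adjusted p under 0.05, beside 0.000552% (1) of 181059 tests over all genes. None had an unadjusted p under 0.05 in this model, a share that was 2.42% over all tests. In the pair model 4 of the 68 did (5.88%), beside 6.2% of all tests (edgeR). Of the 68, 28 were lower and 40 higher in Chd8het, with a median log2 change of 0.03. This balance turned when 1 library was left out, to 44 lower and 25 higher (median -0.081) without Chd8het male 2, 38 and 31 (-0.037) without WT male 1, and 36 and 33 (-0.008) without WT female 1, and it was 19 and 50 (0.119) without WT female 2. DESeq2 called 0 of them as well, beside 0.00166% of all tests, and the pair model 0, beside 0.0508%. In L6 CT neurons Ephb2 had a log2 change of 0.08 ± 0.24, Ephb3 of 0.05 ± 0.25 and Ephb6 of 0.09 ± 0.10 (adjusted p = 1 for each by edgeR). For Ephb2 it was -0.225 without Chd8het male 2 and -0.033 without WT male 1. Whether Ephb1 differed from a paralogue in its change was not tested. In L2/3 IT neurons Ephb2 had -0.37 ± 0.32 with pairs lower in 3 of 4 (-0.064 without WT female 2 to -0.635 without Chd8het male 2), and Ephb6 0.12 ± 0.15 with pairs lower in 1 of 4 (0.021 without Chd8het female 1 to 0.213 without WT male 1). In COP Ephb2 had -0.63 ± 0.33 (adjusted p = 1), where the library of WT male 2 had 96.1 CPM and the other 7 had 27.0 to 46.5. Ephb6 was higher in Chd8het in 12 of 14 types, counting L4/5 IT at 0.002 (-0.006 with pairs), and none was called. Ephb4 was tested in astrocytes only, at -0.48 ± 0.31 (1).

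**Figure D4:**
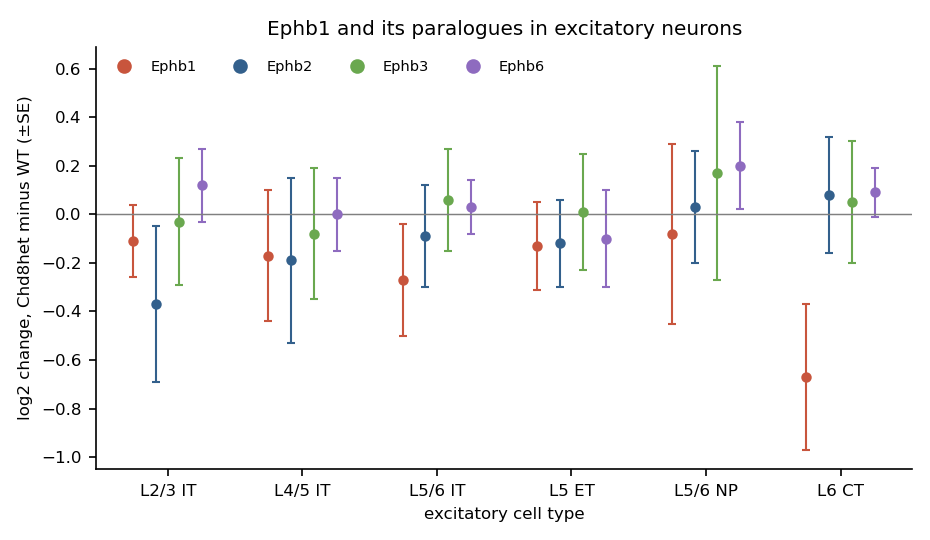
Log2 change (Chd8het minus WT, ± SE, model with sex) of Ephb1, Ephb2, Ephb3 and Ephb6 in 6 excitatory types. Ephb1 has its lowest value in L6 CT neurons (-0.67), where the other 3 receptors lie between 0.05 and 0.09.

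The ligands gave no call between genotypes either (adjusted p 0.999 to 1, edgeR). Efnb2 was tested in 15 types and ranged from -0.20 ± 0.17 in Lamp5 to 0.58 ± 0.28 in microglia. Its change in L6 CT neurons, where Ephb1 was lower, was -0.05 ± 0.17. Efnb3 in oligodendrocytes, its highest type, had -0.10 ± 0.20: the WT libraries had 62.3 to 103 CPM and the Chd8het libraries 57.2 to 92.3. Efnb1 was tested in 4 types, between -0.31 ± 0.31 in L5/6 IT and 0.44 ± 0.42 in L6 CT neurons. A test of whether the genotype difference varied with sex, added after the data had been seen, called 0 of the 68 tests of members other than Ephb1, beside 0% of all tests (edgeR). Unadjusted p under 0.05 were found for Efnb3 in L6 CT neurons (-1.54 ± 0.44) and Efnb2 in oligodendrocytes (-1.34 ± 0.54), with an adjusted p of 1 for both; over all tests the share under 0.05 was 1.36%.

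The wider Eph system was described by 5 lists. By edgeR, 0 genes of any list were called in either direction with sex in the model, beside 0.000552% of all tests. With pairs in the model 1 was called, beside 0.0508%: Reln, the secreted reelin ligand on the list of partners of reverse signalling, fell in Vip interneurons by 0.55 on the log2 scale (SE 0.11, adjusted p = 0.0163). Reln was also a marker of Lamp5 interneurons in the naming of nuclei. Its counts therefore took part in choosing the Vip nuclei, and the part of this in the call was not tested. The EphA receptors (7 of 9 genes tested, 100 tests) had a median log2 change of 0.05, and 10% of their tests had an unadjusted p under 0.05. The ephrin-A ligands (4 of 5, 30 tests) had -0.05 and 10%. Partners of forward signalling (34 of 34, 544 tests) had -0.01 and 2.21%, partners of reverse signalling (12 of 12, 169 tests) 0.01 and 4.73%, and genes of cleavage and turnover (11 of 13, 145 tests) -0.00 and 1.38%. Over all genes the share was 2.42%, and the medians of the types ran from -0.02 to 0.01. In L6 CT neurons Epha6, an EphA receptor, had 0.58 ± 0.32 and Efna5, an ephrin-A ligand, -0.30 ± 0.10. The exchange factor Kalrn, which acts below EphB receptors in spines, had 0.02 ± 0.08, the NMDA receptor subunit Grin2b -0.20 ± 0.14 and the adaptor Grip1, which binds ephrin-B tails, -0.15 ± 0.24. Adam10, a protease that sheds ephrins, had -0.05 ± 0.09. The adjusted p was 1 for these 6 genes by edgeR.

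Sex was a contrast that the choice of members had not used. By edgeR 0 of the 84 member tests were called between females and males, beside 0.0563% (102) of all tests; 3 had an unadjusted p under 0.05, where 3.88% of all tests did, and DESeq2 called 0, beside 0.0891%. With an index type term 12 of the 84 had an unadjusted p under 0.05, beside 8.46% of all tests, and 0 were called. In the model without that term, leaving out a library gave from 0 to 8 member tests with an unadjusted p under 0.05. These were 0 of 86 without Chd8het female 2, beside 2.88% of all tests, and 8 of 85 without WT female 2, beside 5.21%. Efnb1, on the X chromosome, was lower in females in 4 of 4 types tested, from -0.07 ± 0.43 in L4/5 IT to -0.81 ± 0.31 in L5/6 IT (adjusted p 0.964 to 0.999). Ephb2 was lower in females in 13 of 16 types, none called. It had -0.49 ± 0.33 in L2/3 IT, -0.46 ± 0.34 in L4/5 IT, -0.35 ± 0.22 in L5/6 IT, -0.28 ± 0.18 in L5 ET, -0.30 ± 0.23 in L5/6 NP and -0.56 ± 0.24 in L6 CT neurons. The adjusted p of these 6 ran from 0.872 to 0.999. The highest Ephb2 value in L6 CT neurons was 292 CPM in Chd8het male 2, where the others had 110.4 to 192. Without that library the difference was -0.230 in L2/3 IT, -0.078 in L4/5 IT, -0.114 in L5/6 IT, -0.183 in L5 ET, -0.015 in L5/6 NP and -0.256 in L6 CT neurons. With any other library left out the values of these 6 types lay between -0.789 (L2/3 IT, without WT female 2) and -0.139 (L5 ET, without WT male 2). Ephb1 differed by -0.14 ± 0.30 in L6 CT neurons and by 0.06 ± 0.11 in oligodendrocytes.

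Index type, tested after the data had been seen, gave more calls among the members than genotype or sex. In a model of sex, index type and genotype, 23 of 84 member tests were called, beside 14.2% of all tests. Higher in dual-indexed libraries were 21, beside 7.63%, and lower 2, beside 6.58%. Ephb1 was higher in all 16 types tested and called in 9, with 0.90 ± 0.06 in L6 CT (adjusted p = 1.04e-04, edgeR), 1.08 ± 0.15 in L5/6 NP, 0.75 ± 0.09 in L4/5 IT, 0.64 ± 0.08 in L5/6 IT, 0.49 ± 0.09 in L5 ET, 0.37 ± 0.07 in L2/3 IT, 0.66 ± 0.11 in Pvalb, 0.64 ± 0.14 in OPC and 0.94 ± 0.22 in microglia. In L6 CT neurons the single-indexed libraries had 241 to 390.1 CPM and the dual-indexed 415 to 731, without overlap. The difference was 0.10 ± 0.10 in oligodendrocytes and 0.25 ± 0.10 in astrocytes (adjusted p = 0.584 and 0.128). Ephb2 was higher in all 16 types and called in 9: OPC (1.03 ± 0.20, adjusted p = 0.00392), astrocytes (1.00 ± 0.22), L4/5 IT (0.88 ± 0.16), L2/3 IT (0.85 ± 0.14), Pvalb (0.57 ± 0.19), L5/6 NP (0.56 ± 0.14), L5/6 IT (0.54 ± 0.11), L5 ET (0.50 ± 0.10) and Sst (0.38 ± 0.12). Efnb2 was higher in all 15 types and called in L5/6 NP (0.78 ± 0.14), L6 CT (0.43 ± 0.09) and L2/3 IT (0.37 ± 0.08). Ephb6 went the other way in 12 of 14 types and was called in L2/3 IT (-0.31 ± 0.09, adjusted p = 0.0338). Efnb3 was lower in dual-indexed oligodendrocytes (-0.51 ± 0.12, adjusted p = 0.013), where single-indexed libraries had 78.6 to 103 CPM and dual-indexed 57.2 to 67.8. Ephb3 was higher in 10 of 10 types, none called. The count of calls was 15 without Chd8het male 1, beside 7.87% of all tests, and 20 by DESeq2, beside 9.55%. Both were of higher values only, so neither lower call was kept. Of 15 alternatives, the call was lost in 8 for Ephb6 in L2/3 IT, 8 for Ephb2 in Sst, 6 for Ephb2 in Pvalb, 5 for Ephb2 in L5/6 NP, 4 for Ephb2 in astrocytes, and in 3 or fewer for each of the other calls. In Pvalb interneurons the Ephb2 difference was 0.267 without Chd8het male 2 and 0.351 without Chd8het male 1.

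Other measures moved with index type. The median UMI count per nucleus was 4970 to 5948 in single-indexed and 5984 to 7467 in dual-indexed libraries. In microglia, where Ephb1 was 17.2 to 42.7 CPM in single-indexed and 61.6 to 67.2 in dual-indexed libraries, the L6 CT markers summed to 363 to 461 and 516 to 567 CPM, and the 9 microglial markers to 9120 to 10961 and 7468 to 8791. In OPC the L6 CT markers were 323 to 365 and 393 to 432 CPM, and in L6 CT neurons themselves 3918 to 4455 and 4466 to 5752. In L5/6 NP neurons, where the Ephb1 difference was 1.08, these markers went the other way, at 1900 to 2134 and 1112 to 1720 CPM. The L5/6 NP type held 157 to 554 nuclei per library, and 62.6% of all its nuclei lay in a cluster of that name. Whether its make-up differed between libraries was not tested. In L4/5 IT neurons the ranges of the L6 CT markers overlapped (500.1 to 656 and 522 to 747). The 8 striatal projection markers were higher in dual-indexed libraries without overlap in 15 of the 17 tested types. They summed to 799 to 1077 CPM with a single index and 1505 to 2331 with dual indexes in L2/3 IT, 914 to 1283 and 1426 to 2550 in L6 CT, 659 to 769.6 and 919 to 1020 in OPC, and 177 to 234 and 403 to 564 in microglia. The striatal projection type itself had 355 ± 271 CPM of Ephb1. In oligodendrocytes, beside Efnb3, the 6 oligodendrocyte markers summed to 15979 to 17799 and 15760 to 16681, with overlap. The gene opposite Ephb1, 9630041A04Rik, was higher in dual-indexed libraries in L6 CT neurons by 1.18 ± 0.24 and was called there (adjusted p = 0.0108, edgeR). The part of these measures in the index results was not tested. How many of all genes lay apart between index types without overlap was not counted. Genotype and sex are balanced over index type, and with the index term 0 of the 68 tests of members other than Ephb1 were called between genotypes, beside 0.0447% of all tests.

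**Figure D5:**
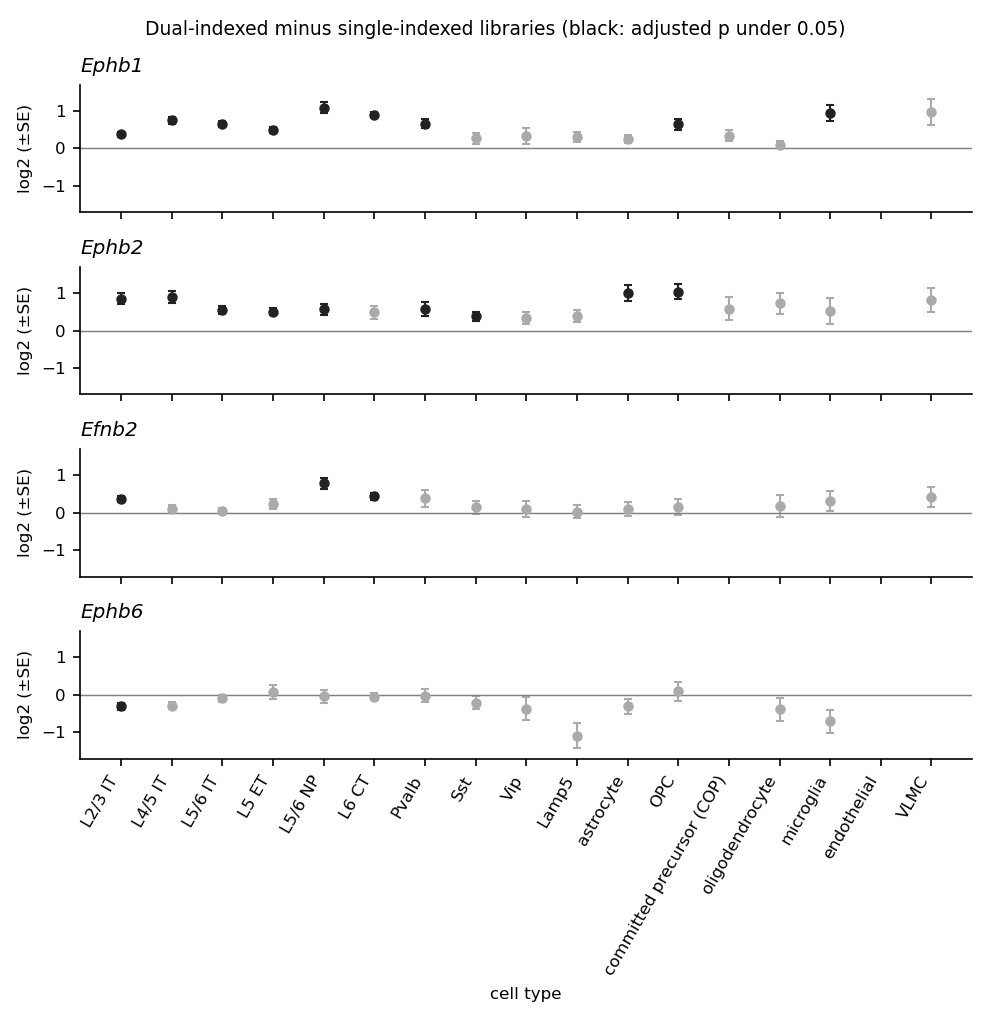
Log2 difference between dual- and single-indexed libraries (± SE, edgeR) of Ephb1, Ephb2, Efnb2 and Ephb6 in each cell type with a test; black points had an adjusted p under 0.05 and grey points did not. Every Ephb1, Ephb2 and Efnb2 point is above 0, and 12 of the 14 Ephb6 points are below it.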

How the data were processed

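The authors deposited whole-number UMI counts per gene and barcode for each library, already limited to 97772 barcodes. Per the submitters' processing notes, STAR 2.7.9a, STARsolo, Cell Ranger and the mm10 build were used; the sources used here do not give the annotation, the strand setting or the use of intron reads. The values were analysed from these counts on. Members and gene lists were chosen with earlier results of these data known.

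Nuclei with at least 500 genes and at most 5% mitochondrial UMIs were kept (82168), and 4278 doublets (5.21%) predicted with Scrublet in scanpy 1.11.5 were removed. Each nucleus was named by the likelihood of its counts over marker genes, learned from seed nuclei in 2 rounds, with a lead of at least 3 log units; 1631 nuclei (2.1%) lay near that limit. In a second naming, 41 Leiden clusters were named by the same markers, and 29 received a name. Several scoring rules had been tried, and the thresholds for naming clusters were set after the clusters had been seen; leading genes were taken among those of at least 100 CPM, a limit set after the data had been seen.

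UMI counts were summed per library and type and tested with the edgeR 4.0.16 quasi-likelihood test (R 4.3.3, TMM scaling, filterByExpr with a minimum count of 10, model of sex and genotype, two-sided). Benjamini-Hochberg adjustment was made over all genes of a type, with calls at adjusted p under 0.05. SEs were derived from the F statistic. Each library is 1 mouse. The scripts were also tested on simulated counts. Gene spans and overlaps came from GENCODE M21, which was chosen here.

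The labels state litter- and sex-matched pairs without saying which libraries form one. Libraries that share sex and replicate number deviated together from the mean of their genotype. Every correlation was over 0.1 in 17 of 18 units (17 types and all nuclei). Correlations ran from -0.125 (endothelial nuclei, where no member was tested) to 0.914, and these libraries were taken as pairs. Replicate number equals index type, and sex was not removed from these deviations. Litter, sex and index type therefore cannot be told apart in that check, which does not show that the libraries are litter pairs. Named genes were the 8 members, up to 4 genes of highest level per list, the 3 genes most like each member (the first of them for most) and overlapping genes. Alternatives were DESeq2 1.42.0 and its size factors, no count filter, pairs, an index term, no sex term, doublets kept, a filter of 1000 genes and 1% mitochondrial UMIs, a stricter lead of 6, named clusters, and each library left out in turn.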

Additional observations from a re-analysis of the deposited data

Results flagged for a closer look

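Outlying values were looked for in 32 groups of 4 libraries of 1 genotype (each member in the types where it was checked). By Dixon's criterion 2 values, both of the same library, stood far from the other libraries of their group. Chance alone marks about 1 in 20 groups. Ephb2 in L6 CT neurons was 292 CPM in Chd8het male 2, with the nearest Chd8het library at 136. Ephb2 in L2/3 IT neurons was 92.7 CPM in the same library, with the nearest at 46.9. Chd8het male 2 is dual-indexed.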

How the results depend on the processing

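The count of members called between genotypes was 0 in 16 of the 18 alternatives, 0 to 0 with a library left out. It was 1 with the replicate block (a term per pair) and 1 with an index type term; the member was Ephb1 in L6 CT neurons both times, whose values led to the choice of the family, so that this is no test. Tests of list genes called between genotypes were 2 with no count filter, both of Reln, higher in Chd8het in L5/6 NP neurons by 0.90 and in OPC by 1.36. They were 1 with the replicate block (Reln, at -0.55 in Vip interneurons), and 0 to 0 with a library left out. Reln was among the markers used to name the nuclei. Members called between sexes were 0 in 16 of 16 alternatives. Members called between index types were 15 to 29 with a library left out. Without Chd8het male 1 they were 15 of 86, beside 14563 of 185107 tests over all genes (7.87%). Without Chd8het female 2 they were 29 of 86, beside 27586 of 184707. Over the 23 called tests, 304 of 345 alternatives kept the call, 41 lost it and 0 reversed.

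With a library left out, the Ephb1 log2 change, a description only, ran from -0.87 to -0.44 in L6 CT, -0.22 to -0.02 in L2/3 IT, -0.42 to 0.005 in L4/5 IT, -0.41 to -0.06 in L5/6 IT, -0.26 to 0.02 in L5 ET and -0.38 to 0.33 in L5/6 NP neurons. It turned to 0.005 in L4/5 IT and 0.024 in L5 ET without WT male 2. In L5/6 NP it turned to 0.329 without WT male 2, 0.045 without WT female 2, 0.136 without Chd8het male 1 and 0.050 without Chd8het female 1. Ephb2 ran from -0.57 to 0.06 in L4/5 IT, turning to 0.057 without WT female 2 and 0.014 without Chd8het male 1, and from -0.23 to 0.25 in L6 CT, turning to -0.033 without WT male 1 and -0.225 without Chd8het male 2. Ephb6 in L4/5 IT, at 0.002, ran from -0.102 to 0.091 with a library left out and turned to -0.000 with no count filter, -0.006 with the replicate block, -0.006 with the index type term, -0.011 with the stricter nucleus filter, -0.102 without WT male 2, -0.061 without Chd8het male 1 and -0.054 without Chd8het female 1. The cause was not tested. Levels of the 11 member and type pairs checked moved by less than 1 SD over libraries. Leaving out 1 of 8 libraries cannot move a mean that far, so those alternatives could not have shown a move. Only keeping doublets, the stricter filter, the stricter lead and the named clusters could have done so. The stricter filter could not be fitted for endothelial nuclei. Depth limits Ephb4 and Efnb1 most, with 505 and 1415 UMIs in all.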
